A study of Drosophila melanogaster with 24 samples.

Results

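The chemoreceptor genes of the fruit fly were measured in single heads of male Drosophila melanogaster. They form the odorant receptor (Or), gustatory receptor (Gr) and ionotropic receptor (Ir) families. Members were chosen by FlyBase symbol: Orco, and every symbol that starts with Or, Gr or Ir followed directly by a digit. The receptors Or67d, Or65a, Or65b, Or65c and Gr32a were set aside by that rule. This gave 182 of the 17559 genes in the table, namely 57 Or, 59 Gr and 66 Ir genes, of which 175 were annotated as protein coding and 7 as pseudogenes.

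Heads came from the male courtship suppression paradigm, in which a virgin male that meets an unreceptive mated female later courts less. The 4 groups of 6 flies were 1X trained (1 session of 2 h with the female), 1X mock, 3X trained (3 such sessions with gaps of 30 min) and 3X mock, and heads were taken 1 h after the last session. All males were housed singly for 5 days before training and kept at 25 °C in a 12:12 light:dark cycle, and mock males spent the same sessions in the tubes without a female. The strain of the sequenced flies was not given in the sources used here. Flies of the 3X groups went through a longer schedule than those of the 1X groups. The clock times at which sessions began and heads were taken were not given in the sources used here, so the schedule and the time of day cannot be told apart.

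Odorant receptors are membrane proteins of olfactory neurons. Each binding receptor forms a channel with the shared co-receptor Orco, and most are expressed in the antenna, a smaller set in the maxillary palp and another set in the larval nose. Gustatory receptors serve taste neurons that detect sugars or bitter compounds, and a pair of them forms the carbon dioxide receptor of the antenna. Ionotropic receptors derive from glutamate receptors, work with the co-receptors Ir8a, Ir25a or Ir76b, and detect acids, amines, humidity, temperature and tastants. Several receptors of these families act in male courtship, among them Gr33a and Gr66a, which are needed for aversive taste.

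The libraries held 18929289 to 41403289 reads. The values were RPKM, which are reads divided by the length of the exons and by the size of the library, so levels can be set side by side between genes. All 8 head markers on the list were above 1 RPKM in every fly, for example the photoreceptor rhodopsin ninaE at 11358 to 14688 RPKM and the neuronal gene elav at 8.47 to 10.9 RPKM. The summed level of 19 testis markers was 141.6 RPKM in 3X mock replicate 6 and 27.4 to 37.5 RPKM in the other flies, and the part of that library in the 3X mock values of the receptors is given for Ir62a and for detection. In these bulk heads, fewer cells of a type and less RNA per cell cannot be told apart.

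Most receptors were low. Only 35 of the 182 members (19.2%) reached 1 RPKM in at least 6 of the 24 flies, against 10547 genes (60.1%) of the whole table. By family these were 16 of 57 Or genes (28.1%), 8 of 59 Gr genes (13.6%) and 11 of 66 Ir genes (16.7%). The median over all members of the mean level was 0.0905 RPKM for the Or and 0.0913 RPKM for the Gr family. It was 0.0443 RPKM for the Ir family. The 10547 genes had a median of 12.0 RPKM, but these are only genes that passed the threshold, so the medians are not like for like. The receptors together took 0.0178% to 0.0212% of all reads of a fly.

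No member was at 0 in every fly. Above 0 in all 24 flies were 26 Or, 25 Gr and 23 Ir genes, and the other 108 members were at 0 in some flies. For 86 members no fly had as many as 10 reads. The number of members at 1 RPKM or more in a single fly was 26 to 29 in 1X trained flies, 26 to 31 in 1X mock flies, 21 to 30 in 3X trained flies and 26 to 29 in 3X mock flies. These ranges overlapped in all 4 groups. A single fly had 11 to 16 Or, 2 to 8 Gr and 8 to 11 Ir genes at that level, and the summed level of a family was 35.0 to 47.4 RPKM for Or, 10.7 to 24.1 RPKM for Gr and 37.2 to 43.7 RPKM for Ir genes. At the threshold, Ir31a and Gr33a were the last members inside, with sixth-highest values of 1.04 and 1.01 RPKM. Both reached 1 RPKM in no more than the 6 flies required. Each is therefore lost without any 1 of its 6 flies, of which 3X mock replicate 6 is 1 for both. The bitter receptor Gr8a (0.844) and the palp receptor Or85d (0.822) were the first outside.

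**Figure D1:**
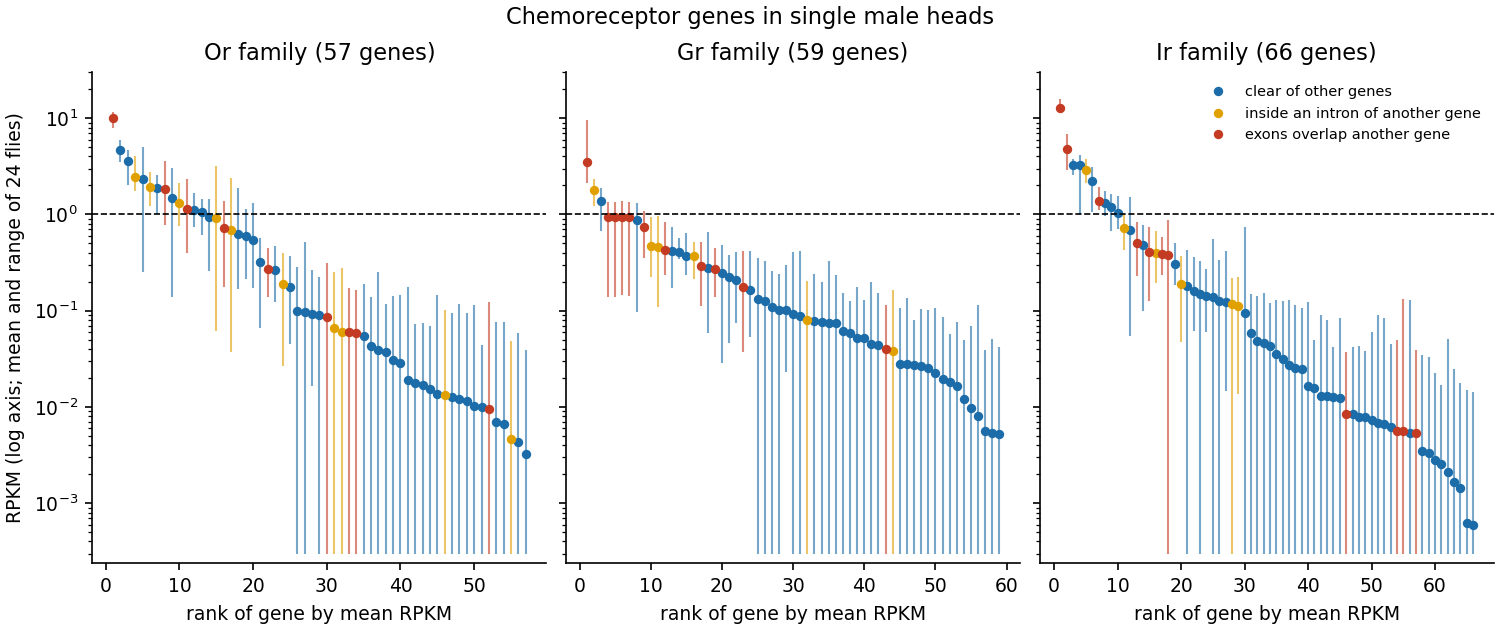
Mean RPKM (point, log axis) and range over 24 flies (line) of every Or, Gr and Ir gene, ranked by mean within its family; values of 0 are drawn at the lower edge, the dashed line marks 1 RPKM and colours show whether the gene shares ground with another gene. Each family falls over several orders of magnitude, with 10.1 RPKM as the highest Or, 3.48 as the highest Gr and 12.7 as the highest Ir mean.

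Reads of some members cannot be separated from those of a neighbour. Some overlaps lay on the same strand, and the libraries did not mark strand, so other-strand overlaps cannot be separated either. Exons of 31 members overlapped exons of another gene, and 22 more members lay inside an intron of one. Among the 35 members above the threshold these numbers were 11 and 7, which left 17 clear of other genes (8 Or, 2 Gr and 7 Ir). The 2 highest members were both of the first kind. Ir85a (chromosome 3R, 8794684 to 8796966) averaged 12.7 RPKM and shared 10.8% of its exonic bases with Pif1A, a gene on the other strand at 65.2 RPKM; its highest value, 15.7 RPKM, was in 3X mock replicate 6. Or43b (chromosome 2R, 7920835 to 7922604), at 10.1 RPKM, shared 40.7% with Cul1, at 22.3 RPKM on the other strand. Or83a and Or45b were covered by other-strand transcripts over 100% of their exons. Gr64b and Gr64c had the same annotated exons and equal reads in all 24 flies. Gr64d and Gr64e had equal reads in 20 flies, and Or10a and Gr10a had equal reads in all 24. The genes of a pair are therefore not separate measurements. Both are nevertheless included in the counts of members, in the summed levels of families and lists, and in the share of all reads. Ir75d (1.39 RPKM) shared 90.7% of its exonic bases with the same-strand gene COX6AL2. Coordinates are those of dm6.

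The co-receptor Orco (chromosome 3R, 5407183 to 5412406, clear of other genes) was detected in every fly with 119 to 346 reads. Its lowest, median and highest values were 2.77, 3.45 and 4.69 RPKM in 1X trained flies and 3.08, 3.74 and 4.38 RPKM in 1X mock flies. They were 2.03, 3.69 and 3.74 RPKM in 3X trained flies and 2.77, 3.64 and 4.25 RPKM in 3X mock flies. The groups overlapped throughout, and the 3X trained minimum came from 1 fly, replicate 2.

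Receptors of the maxillary palp, the smaller olfactory organ on the mouthparts, were all above 0 in all 24 flies. Their means ran from 0.541 RPKM (Or33c) to 1.93 RPKM (Or71a), with Or85e at 1.89 and Or59c at 1.33 RPKM. Of the 7, 4 passed the threshold. Or71a lay inside an intron of Plp (5.84 RPKM), and Or59c and the antennal Or59b inside introns of CG43795 (6.35 RPKM). Exons of other genes covered 100% of those of Or46a. Whether reads of these genes enter the receptor values was not tested. Receptors of the adult antenna, the main olfactory organ, had a median of 0.0587 RPKM over 34 genes, against 0.943 RPKM over the 7 palp genes. Of the 34, 22 averaged below 0.1 RPKM and 6 passed the threshold. Or47b and Or88a, which respond to odours of other flies, averaged 0.00695 and 0.0580 RPKM. Or42b and Or22a, which respond to fruit esters, averaged 0.0976 and 0.178 RPKM.

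The antennal receptors above the threshold were Or43b, Or19b, Or19a, Or85f, Or13a and Or59b. Or19b (2.34 RPKM) and Or19a (1.47 RPKM), receptors for citrus terpenes, are near-identical copies on chromosome X whose reads may have been split between them. Of 13 receptors listed for the larval nose, 5 passed the threshold: Or63a at 4.68 RPKM, Or45a at 2.43, Or83a at 1.86, Or45b at 1.14 and Or1a at 0.914 RPKM. Or63a (chromosome 3L, 2961534 to 2963788) was clear of other genes, and Or45a and Or1a lay inside introns of other genes. The other 8 larval receptors averaged below 0.1 RPKM.

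**Figure D2:**
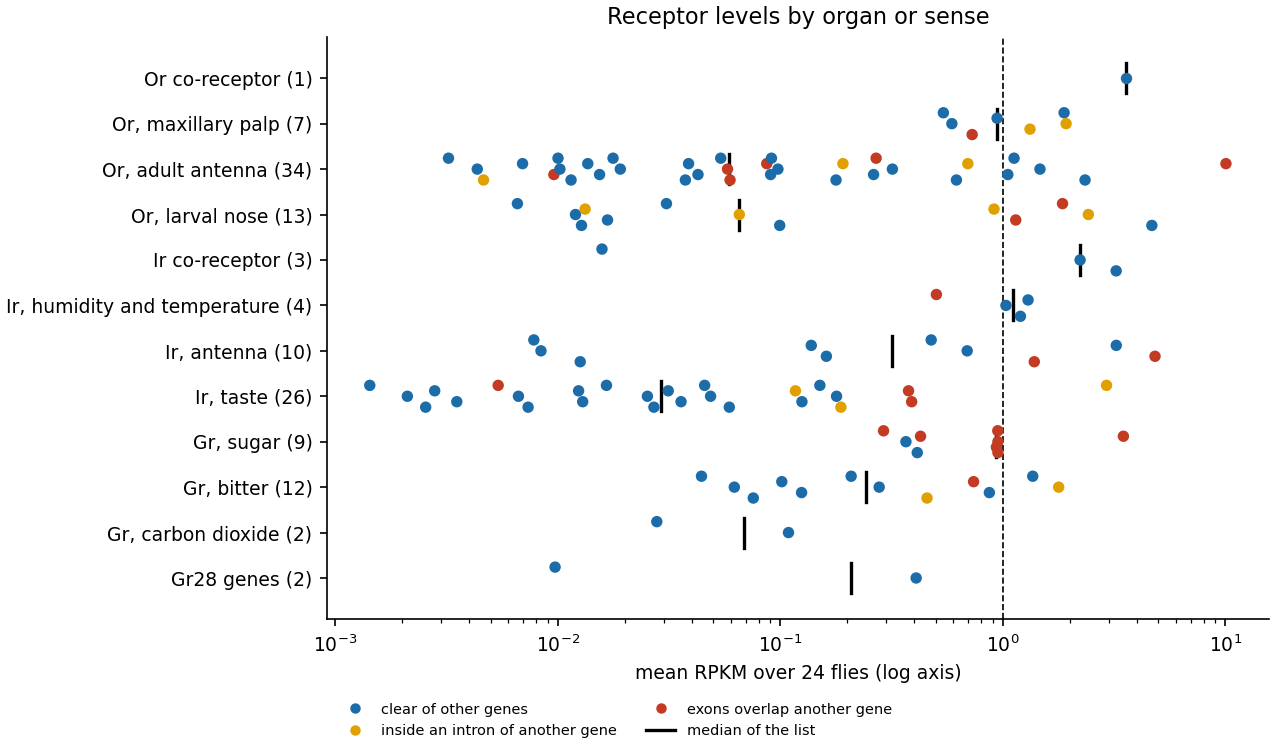
Mean RPKM over 24 flies (log axis) of the receptors on each list of an organ or sense, 1 point per gene, with the list's size in brackets, a black bar at its median and a dashed line at 1 RPKM. The 7 palp receptors sit between 0.541 and 1.93 RPKM, while the 34 antennal Or genes spread down to 0.0032 RPKM around a median of 0.0587 RPKM.

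Among ionotropic receptors, the co-receptors differed in level. Ir76b, which serves amines and taste, averaged 3.23 RPKM and Ir25a, the most widely used co-receptor, 2.23 RPKM. Ir8a, the co-receptor for acids in the antenna, averaged 0.0158 RPKM with 0 to 5 reads per fly. The antennal acid receptors Ir64a and Ir84a, of which Ir84a promotes male courtship, averaged 0.0126 and 0.00781 RPKM. All 4 receptors for humidity and temperature were above 0 in every fly, with Ir93a at 1.30, Ir68a at 1.20, Ir40a at 1.03 and Ir21a at 0.503 RPKM. Ir76a (4.83 RPKM) and Ir41a (3.24 RPKM), which form amine receptors with Ir25a and Ir76b in the antenna, were the highest antennal Irs. Of 26 Irs listed with taste, 18 averaged below 0.1 RPKM and Ir62a alone passed the threshold, at 2.93 RPKM.

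Sugar receptors were all detected: the 9 genes ran from 0.291 RPKM (Gr5a) to 3.48 RPKM (Gr43a), above 0 in every fly. Gr43a, a fructose receptor that also serves as a nutrient sensor in the brain, shared 10.2% of its exonic bases with Dhx15 (16.7 RPKM, other strand). The Gr64 cluster transcripts Gr64b to Gr64e averaged 0.936 to 0.951 RPKM. Among 12 bitter receptors, Gr39a (1.78 RPKM), Gr66a (1.36 RPKM) and Gr33a (0.871 RPKM) passed the threshold. Gr39a, which acts in male courtship, lay inside an intron of Mondo (20.6 RPKM). Gr66a and Gr33a were the only Gr genes above the threshold that were clear of other genes. Gr33a did not pass it without any 1 of the 6 flies in which it reached 1 RPKM, 3X mock replicate 6 among them. The carbon dioxide receptor genes Gr63a and Gr21a averaged 0.109 and 0.0279 RPKM.

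Support cells of the sensory hairs secrete odorant binding proteins around the neurons. Of 13 such genes and accessory genes, Obp19d (944 RPKM), which is also made in taste organs, and Obp28a (63.5 RPKM) were the highest. Obp83a (0.640 RPKM), Obp83b (0.517 RPKM), Obp59a (0.0387 RPKM) and a5 (0.00924 RPKM), which are known from the antenna, were lower. The binding protein of the pheromone cVA, lush, had 2.42 RPKM. Of the 13 genes 8 passed the threshold, among them Obp69a, Obp84a, Obp99d, a10 and Snmp1, and the median of the list was 2.47 RPKM. By the methods, frozen flies lost their heads either to vortexing or to a cut on dry ice. The labels of these heads name only dry ice, and whether the antennae stayed on was not tested. Among pheromone-related ppk channels of taste neurons, ppk29 averaged 5.65, ppk25 0.715 and ppk23 0.380 RPKM.

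The first comparison asked which receptors differ between trained and mock males after 1 session. None of the 35 members tested passed a limma adjusted p of 0.05 over all 10547 genes, and by voom on recovered reads the count was also 0. Of all genes 521 were called (4.94%), and 1 member had an unadjusted p below 0.05, where 20.8% of all genes did. The log2 differences ran from -0.21 to 0.38 with standard errors of 0.054 to 0.30, and 17 members were higher and 18 lower in 1X trained flies. Their median difference was -0.0009 against 0.0021 over all genes tested. No member separated the groups without overlap, as 3.89% of all genes did.

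The member with the smallest p after 1 session was the amine receptor Ir41a (chromosome 2R, 4917519 to 5021955). Its lowest, median and highest values were 2.65, 3.11 and 3.16 RPKM in 1X trained flies and 3.10, 3.38 and 3.72 RPKM in 1X mock flies, so 3 trained flies lay below every mock fly. The log2 difference was -0.12 ± 0.05 (SE) with a limma adjusted p of 0.185. After 3 sessions it was -0.11 ± 0.05 (SE, limma adjusted p = 0.231), with 2.56, 3.21 and 3.49 RPKM in 3X trained flies and 2.98, 3.49 and 3.58 RPKM in 3X mock flies. Neither difference passed the threshold.

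After 3 sessions 1 of the 35 members was called, Ir62a, which was lower in 3X trained flies. Over all genes 239 were called (2.27%), 157 of them higher and 82 lower (0.777%). That split was 135 and 116 with median-ratio scaling and 118 and 157 with quantile normalization, and Ir62a was called lower under each. The log2 differences of the 35 ran from -0.34 to 0.67, with 13 higher and 22 lower in 3X trained flies, a median of -0.02 against 0.0089 over all genes tested. Unadjusted p-values below 0.05 were found for 4 members (11.4%) and for 21.2% of all genes, and again no member separated the groups, as 2.46% of all genes did. The 2 sets of training differences come from separate flies and share no controls.

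Ir62a (FBgn0053971, chromosome 3L, 1529439 to 1531259) is a gene of 1 exon in an intron of Iml1. Its lowest, median and highest values were 2.12, 2.28 and 2.90 RPKM in 3X trained flies and 2.71, 3.24 and 3.68 RPKM in 3X mock flies. All but 1 of the 3X trained flies lay below every 3X mock fly. The means were 2.37 ± 0.275 RPKM in 3X trained flies and 3.26 ± 0.363 RPKM in 3X mock flies, with SD over 6 flies in either group and a ratio of 0.729. The log2 difference was -0.34 ± 0.07 (SE, limma adjusted p = 0.0215).

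After 1 session Ir62a had 2.43, 2.79 and 3.38 RPKM in 1X trained flies and 2.81, 3.20 and 3.77 RPKM in 1X mock flies (lowest, median, highest). That difference was -0.13 ± 0.07 (SE, limma adjusted p = 0.322), and the test of the 3X against the 1X difference gave -0.21 ± 0.10 (SE, limma adjusted p = 0.446). The host gene Iml1, which acts in nutrient signalling and averaged 39.0 RPKM, had log2 differences of -0.15 ± 0.10 after 3 sessions and -0.26 ± 0.10 after 1 session (SE, limma adjusted p = 0.389 and 0.129). Whether unspliced reads of Iml1 enter the Ir62a value was not tested. The Ir62a call was lost when only the 3X flies were fitted (limma adjusted p = 0.0591). Of 24 fits with 1 fly left out it was lost in 5, those without 3X trained replicates 3 or 5 or 3X mock replicates 1, 3 or 4 (limma adjusted p of 0.0512 to 0.0648). Without 3X mock replicate 6 it was kept (limma adjusted p = 0.0399).

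**Figure D3:**
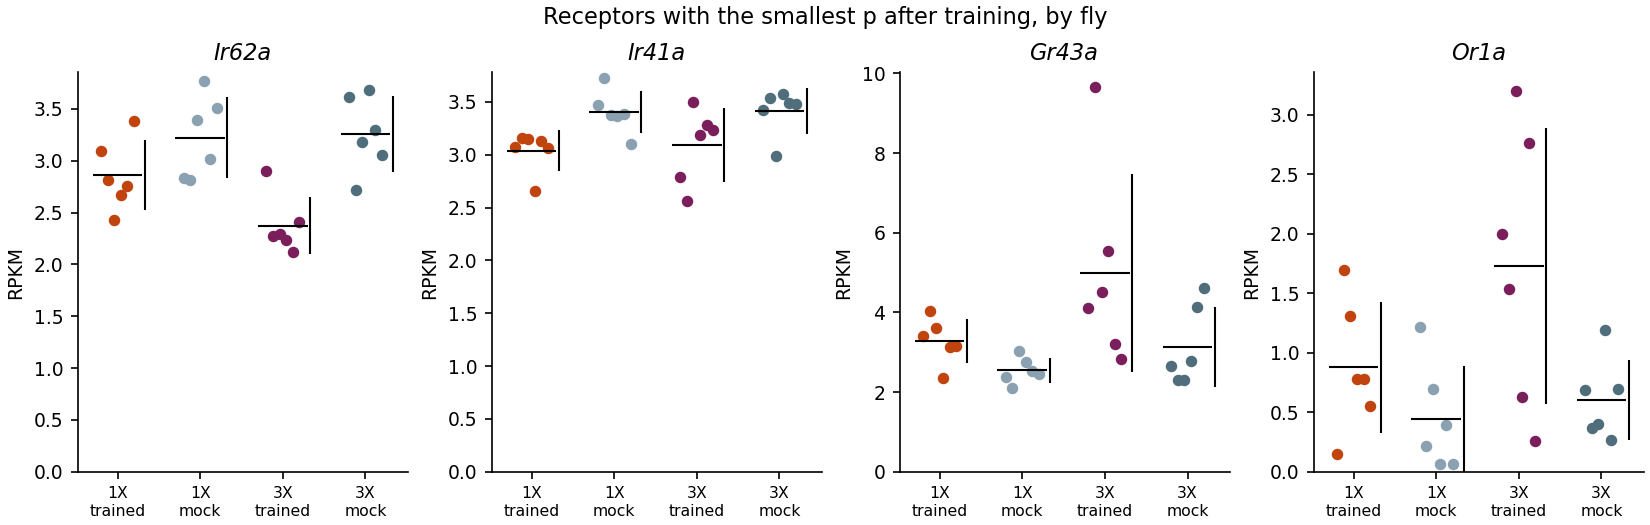
RPKM of Ir62a, Ir41a, Gr43a and Or1a in each fly (points) of the 1X trained, 1X mock, 3X trained and 3X mock groups, with the mean as a horizontal line and 1 SD as a vertical line. For Ir62a the 3X trained flies lie at 2.12 to 2.90 RPKM and the 3X mock flies at 2.71 to 3.68 RPKM; only Ir62a passed the limma threshold.

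The 3 largest positive differences after 3 sessions, those of Or1a, Or19b (0.55) and Gr43a, did not pass the threshold. Gr43a had 2.83, 4.31 and 9.65 RPKM in 3X trained flies and 2.29, 2.72 and 4.62 RPKM in 3X mock flies (lowest, median, highest). Its log2 difference was 0.48 ± 0.18 (SE, limma adjusted p = 0.135), and it was 0.29 without 3X trained replicate 2, the fly with 9.65 RPKM. After 1 session Gr43a differed by 0.27 ± 0.18 (SE, limma adjusted p = 0.432), with 5 trained flies above every mock fly (2 after 3 sessions). Fitted without 3X trained replicate 2, that 1X difference was 0.27 ± 0.14 (SE, limma adjusted p = 0.274). The other-strand neighbour of Gr43a, Dhx15, differed by 0.08 after each training. Dhx15 had its highest value, 21.3 RPKM, in 3X trained replicate 2 as well (median 16.5 RPKM over all flies). Its part in the Gr43a values was not tested. Or1a had 0.260, 1.77 and 3.20 RPKM in 3X trained flies and 0.264, 0.545 and 1.19 RPKM in 3X mock flies. With 4 trained flies above all mock flies and 1 below them, its difference was 0.67 ± 0.26 (SE, limma adjusted p = 0.144), and it was called without 3X trained replicate 6 (adjusted p = 0.0378).

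The co-receptors did not pass in either comparison. The log2 differences of Orco were -0.07 ± 0.11 after 1 session and -0.09 ± 0.11 after 3 sessions (SE). The Orco value after 1 session was -0.04 without 1X mock replicate 4, and that after 3 sessions was 0.02 without 3X trained replicate 2. Ir76b differed by 0.15 ± 0.15 and -0.04 ± 0.15 (SE), and without 1X mock replicate 4 the 1X differences were -0.04 for Ir76b and 0.10 for Ir25a. Ir25a had 1.92, 2.44 and 3.09 RPKM in 1X trained flies and 1.07, 2.12 and 2.43 RPKM in 1X mock flies, a difference of 0.21 ± 0.10 (SE, limma adjusted p = 0.253). Among the 3X flies it had 1.67, 2.00 and 2.55 RPKM in trained flies and 2.11, 2.41 and 2.65 RPKM in mock flies, a difference of -0.13 ± 0.10 (SE, limma adjusted p = 0.478).

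Receptors of taste and of the palp also overlapped between trained and mock flies. Gr66a had 1.19, 1.35 and 1.88 RPKM in 1X trained flies and 0.681, 1.36 and 1.89 RPKM in 1X mock flies (lowest, median, highest). In the 3X flies it had 0.992, 1.31 and 1.73 RPKM after training and 1.08, 1.30 and 1.75 RPKM in mock flies. Its log2 differences were 0.02 ± 0.11 and -0.02 ± 0.11, and those of Gr33a were 0.05 ± 0.13 and -0.12 ± 0.13 (SE, after 1 and 3 sessions). Without 1X mock replicate 4 the 1X differences were -0.08 for Gr66a and -0.09 for Gr33a. The highest palp receptor, Or71a, differed by -0.05 ± 0.10 in both comparisons. Or63a, the highest Or gene clear of other genes, had 3.47, 4.28 and 5.21 RPKM in 1X trained flies and 3.99, 4.47 and 5.11 RPKM in 1X mock flies. It had 4.44, 4.79 and 5.32 RPKM in 3X trained flies and 4.39, 5.06 and 6.00 RPKM in 3X mock flies, and differed by -0.07 ± 0.09 and -0.06 ± 0.09 (SE). Among the humidity and temperature receptors, Ir93a differed most after 3 sessions (-0.15 ± 0.07, SE, limma adjusted p = 0.245) and Ir68a most after 1 session (-0.19 ± 0.09, SE, limma adjusted p = 0.253).

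**Figure D4:**
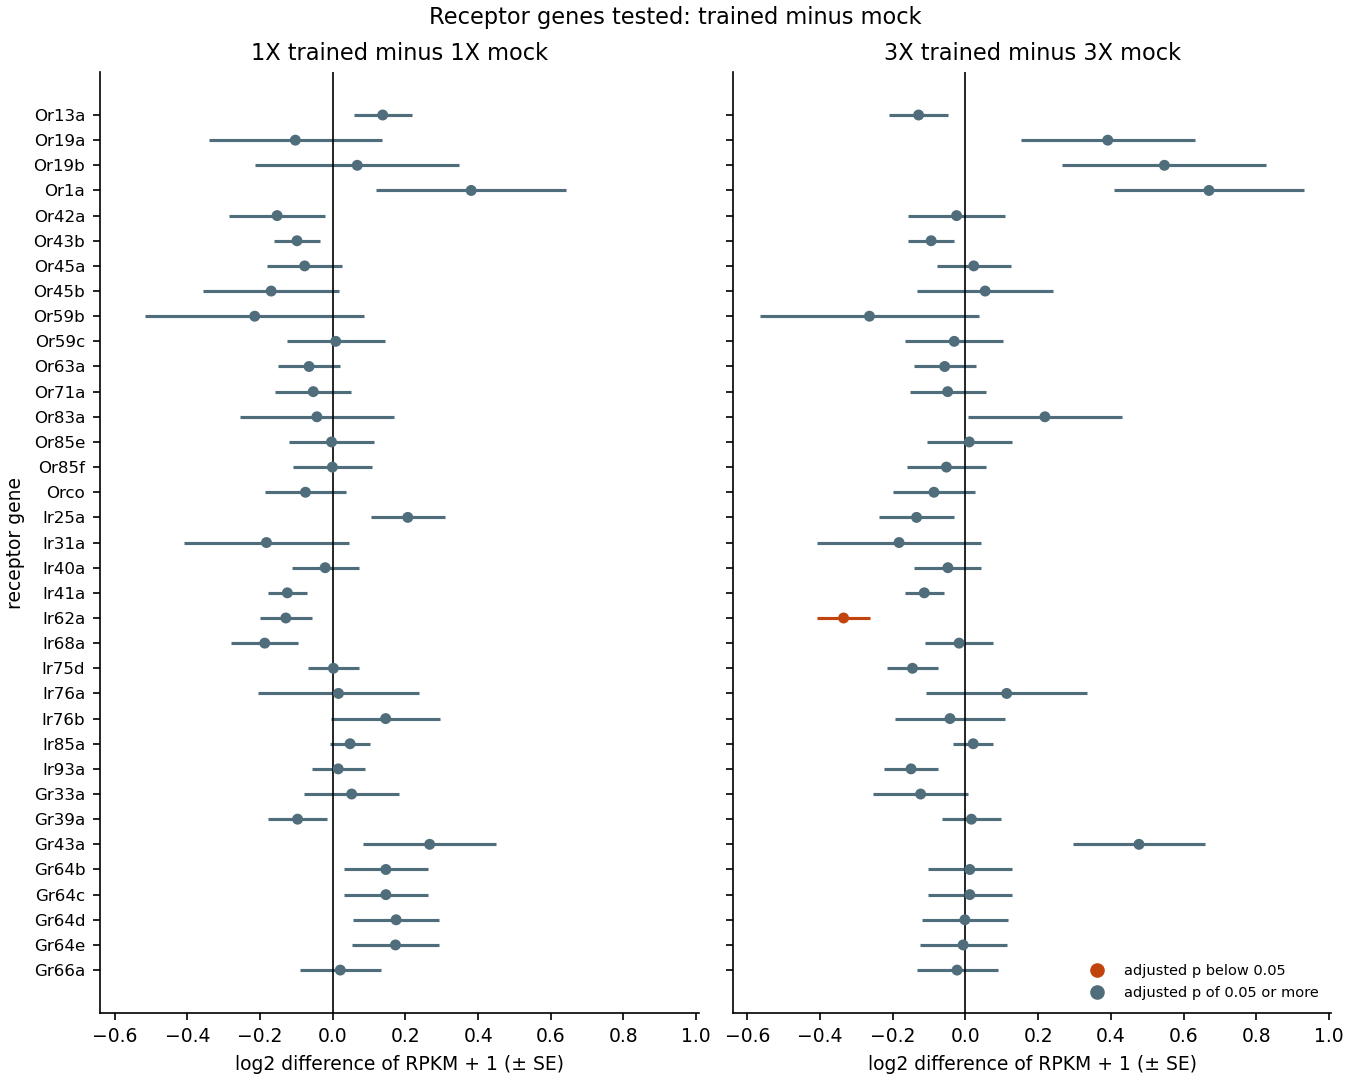
Log2 differences of RPKM + 1 with standard errors for the 35 receptors tested, grouped as Or, Ir and Gr, for 1X trained minus 1X mock (left) and 3X trained minus 3X mock (right). Values lie between -0.21 and 0.38 on the left and between -0.34 and 0.67 on the right, and Ir62a after 3 sessions is the only orange point.

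The difference between the 3X and the 1X training effect was tested for each member, and none was called by limma or by voom (18 of all genes, 0.171%). At an unadjusted p below 0.05 were 2 members, against 11.6% of all genes. These were Ir25a, with -0.34 ± 0.15 (SE, limma adjusted p = 0.355), and the antennal receptor Or13a, with -0.27 ± 0.11 (SE, limma adjusted p = 0.355). Without 1X mock replicate 4 the Ir25a value was -0.24.

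The schedule was compared in mock and in trained males. These comparisons use the same flies as the training comparisons. Between 3X mock and 1X mock flies no member was called by limma or by voom, while 458 of all genes were (4.34%). Unadjusted p-values below 0.05 were found for 1 member and for 16.9% of all genes, and no member separated the groups (4.28% of all genes). Or45a was the member with the smallest p, with 1.77, 2.04 and 2.95 RPKM in 3X mock flies and 2.04, 2.58 and 4.03 RPKM in 1X mock flies, and its log2 difference was -0.25 ± 0.10 (SE). The limma adjusted p was 0.204, and without 1X mock replicate 4 the difference was -0.16 (limma adjusted p = 0.439). Between 3X trained and 1X trained flies no member was called by limma or by voom either, although 1172 of all genes were (11.1%). An unadjusted p below 0.05 was found for 3 members and for 26.2% of all genes, and again no member separated the groups (4.28% of all genes). Ir62a came closest, with -0.19 ± 0.07 (SE, limma adjusted p = 0.0875), and it was called without 3X trained replicate 1 (adjusted p = 0.0408). Of 8 clock genes 5 were higher and 2 lower in the 3X flies of either comparison, tim by 2.87 ± 0.14 between mock groups and 3.10 ± 0.14 between trained groups (SE, log2).

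With the lower threshold of 0.1 RPKM in at least 6 flies, 99 members could be tested on log2(RPKM + 0.1). No member was called after 1 session (3.09% of all genes) and Ir62a alone after 3 sessions (1.07% of all genes, limma adjusted p = 0.0257). None was called in the test of the difference between the training effects (0.126%), between mock groups (3.15%) or between trained groups (8.0%). When every gene above 0 in any fly was tested, Ir68b was called lower after 1 session (2.03% of all genes called). It was named after its values were seen: it had 0.0147, 0.0633 and 0.153 RPKM in 1X trained flies and 0.101, 0.206 and 0.419 RPKM in 1X mock flies, on 1 to 28 reads per fly. The 3X mock flies had 3 to 13 reads of Ir68b. With the lower threshold it was also lower in 3X mock than in 1X mock flies, without being called (-0.56 ± 0.26, SE, limma adjusted p = 0.308).

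Genes that work with the receptors were tested as well. Of 13 antennal support genes 8 were tested, and after 1 session 1 was called, where 4.94% of all genes were. This gene, Obp69a, which codes for an odorant binding protein, was higher in 1X trained flies by 0.56 ± 0.16 (SE, limma adjusted p = 0.0490). No other gene of that list was called in the 5 comparisons. Of 20 genes of olfactory signalling and regulation 17 were tested, and 1 was called between the trained groups, where 11.1% of all genes were. Snmp2, a CD36-related membrane protein, was lower in 3X trained than in 1X trained flies, at a limma adjusted p of 0.0132, and its log2 difference was -0.29 ± 0.07 (SE). None of the 3 ppk channels tested was called.

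Some single heads stood apart in several members at once. In 1X mock replicate 4, 8 of the 35 members had their lowest value of all flies, all of them taste receptors or Ir co-receptors. With the Gr64 pairs counted once these were 6 separate measurements. Gr33a had 0.0966 RPKM there and 0.465 to 1.30 RPKM in the other 23 flies, and Gr64b had 0.138 RPKM there and 0.732 to 1.35 RPKM elsewhere. Ir76b had 0.991 RPKM (2.78 to 4.16 elsewhere), Ir25a 1.07 RPKM (1.67 to 3.09 elsewhere) and Gr66a 0.681 RPKM (0.992 to 1.89 elsewhere). Of 25 taste receptors with a median of at least 0.1 RPKM in the other flies, 12 were lowest in this fly and 11 were below 50% of that median. Both genes of each Gr64 pair are in these counts. Ir56b is counted as lowest at 0 reads, which it also had in 3X trained replicate 3.

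Not every receptor of that head was low. Orco had 4.38 RPKM in 1X mock replicate 4, and the 7 palp receptors summed to 10.1 RPKM there, against 4.62 to 9.95 RPKM in the other flies. Of the 25 taste receptors, 6 were at or above 90% of the median of the others. These were Gr39a (97.6%), Gr64f (98.2%), Gr61a (117%), Ir47a (122%), Ir62a (133%) and Ir56a (159%). The sugar receptors Gr64a (67.1%) and Gr5a (53.1%) lay between these and Gr64b to Gr64e. Of the 35 members, others below 50% of the median of the other flies were Or1a (0.0664 RPKM on 3 reads), Or59b (0.0877 RPKM on 5 reads) and Ir31a (0.174 RPKM on 15 reads), which varied widely across all flies. The ppk channels of pheromone-sensing taste neurons followed in part, with ppk23 at 0 reads and ppk29 at 3.40 RPKM (3.63 to 9.05 elsewhere), whereas ppk25 was at 98.2% of the median of the others. The library of that fly is 1 of 6 in its group, and the values without it are given beside the 1X differences of Orco, Ir25a, Ir76b, Gr66a and Gr33a.

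In 3X trained replicate 2 the lowest values were those of other genes. Orco was lowest there, at 2.03 RPKM against 2.77 to 4.69 RPKM in the other flies. The summed palp receptors were also lowest, at 4.62 RPKM against 5.00 to 10.1 RPKM, with Or46a at 0.175 RPKM (0.480 to 1.37 elsewhere) and Or85e at 1.02 RPKM (1.19 to 2.59 elsewhere). Obp28a stood at 31.7 RPKM, 46.6% of the median of the others. Summed Or genes of the adult antenna were at 94.1% of their median in the other flies, and those of the larval nose at 90.5%. Of the palp receptors, Or71a was at 70.8% and Or85d at 79.5% of its own median in the other flies. The bitter receptors Gr66a (74.7%) and Gr33a (82.5%) and the co-receptors Ir25a (81.1%) and Ir76b (87.4%) were also below theirs. The summed sugar receptors were the highest of all flies there, at 14.7 RPKM against 4.57 to 10.5 RPKM. Gr43a alone, which had its highest value in this head, made up 9.65 RPKM of that sum. Sugar and bitter receptors without Gr43a, Gr39a, Gr64c and Gr64d summed to 7.21 RPKM there, 90.2% of the median of the others. Over the 35 members the median ratio to the other flies was 0.873, the lowest of all 24 flies.

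The next lowest palp sum was that of 3X mock replicate 2, at 5.00 RPKM, where Or71a (1.21 RPKM) and Or85d (0.214 RPKM) were lowest of all flies. Ir76b was at 130% and Ir25a at 97.8% of the median of the other flies in that head. In 1X trained replicate 1 the binding proteins were lowest, with Obp28a at 25.5 RPKM, Obp19d at 411 RPKM (808 to 1092 elsewhere) and lush at 0.865 RPKM (1.31 to 4.98 elsewhere). Orco stood at 2.77 RPKM there, 75.5% of the median of the others, and Or85e at 97.9%.

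Between heads, the deviation of Orco from its group mean went with that of Obp28a, with Pearson r = 0.75 over 24 flies (permutation p = 0.00038, adjusted over 6 relations 0.00228). Spearman rho was 0.49 (permutation p = 0.0132, adjusted 0.0793), and r was 0.59 without the 2 flies farthest from the median of Orco. The other 5 relations computed had adjusted permutation p-values of 0.703 or more. Orco and Ir76b had r = -0.15 and rho = -0.14 (permutation p = 0.468 and 0.532), and Orco and Ir25a had r = 0.02 and rho = -0.02 (permutation p = 0.932 and 0.926).

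Ir76a (chromosome 3L, 19799278 to 19803427) fell into 2 separate levels. In 9 flies it had 2.93 to 3.17 RPKM and in 15 flies 5.41 to 6.87 RPKM, with no fly between. The low level was found in 2 of 6 1X trained, 2 of 6 1X mock, 2 of 6 3X trained and 3 of 6 3X mock flies, on 118 to 262 reads, and the high level rested on 367 to 541 reads. The gap took 0.617 of the whole range of log2 values. Among gaps with at least 3 flies on either side, the next widest was that of Or19b, at 0.224, and gaps set by 1 or 2 flies, such as those of Ir76b and Gr64b, were not compared. The overlapping other-strand gene CG14102 had 2.03 to 2.92 RPKM over all flies, and its part in the levels of Ir76a was not tested. The training differences of Ir76a were 0.02 ± 0.22 after 1 session and 0.11 ± 0.22 after 3 sessions (SE).

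Other members also had wide ranges. Or59b had 0.0373 to 2.39 RPKM, Or1a 0.0620 to 3.20 RPKM and Ir31a 0.0550 to 1.52 RPKM across the flies. Their standard deviation within groups was 101%, 76.7% and 66.3% of the mean, while counting error at the median number of reads was 22.9%, 18.9% and 13.2%. Or19b ran from 0.249 RPKM in 3X mock replicate 4 to 5.02 RPKM in 1X trained replicate 4, and Or19a had its lowest and highest values in the same 2 flies.

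**Figure D5:**
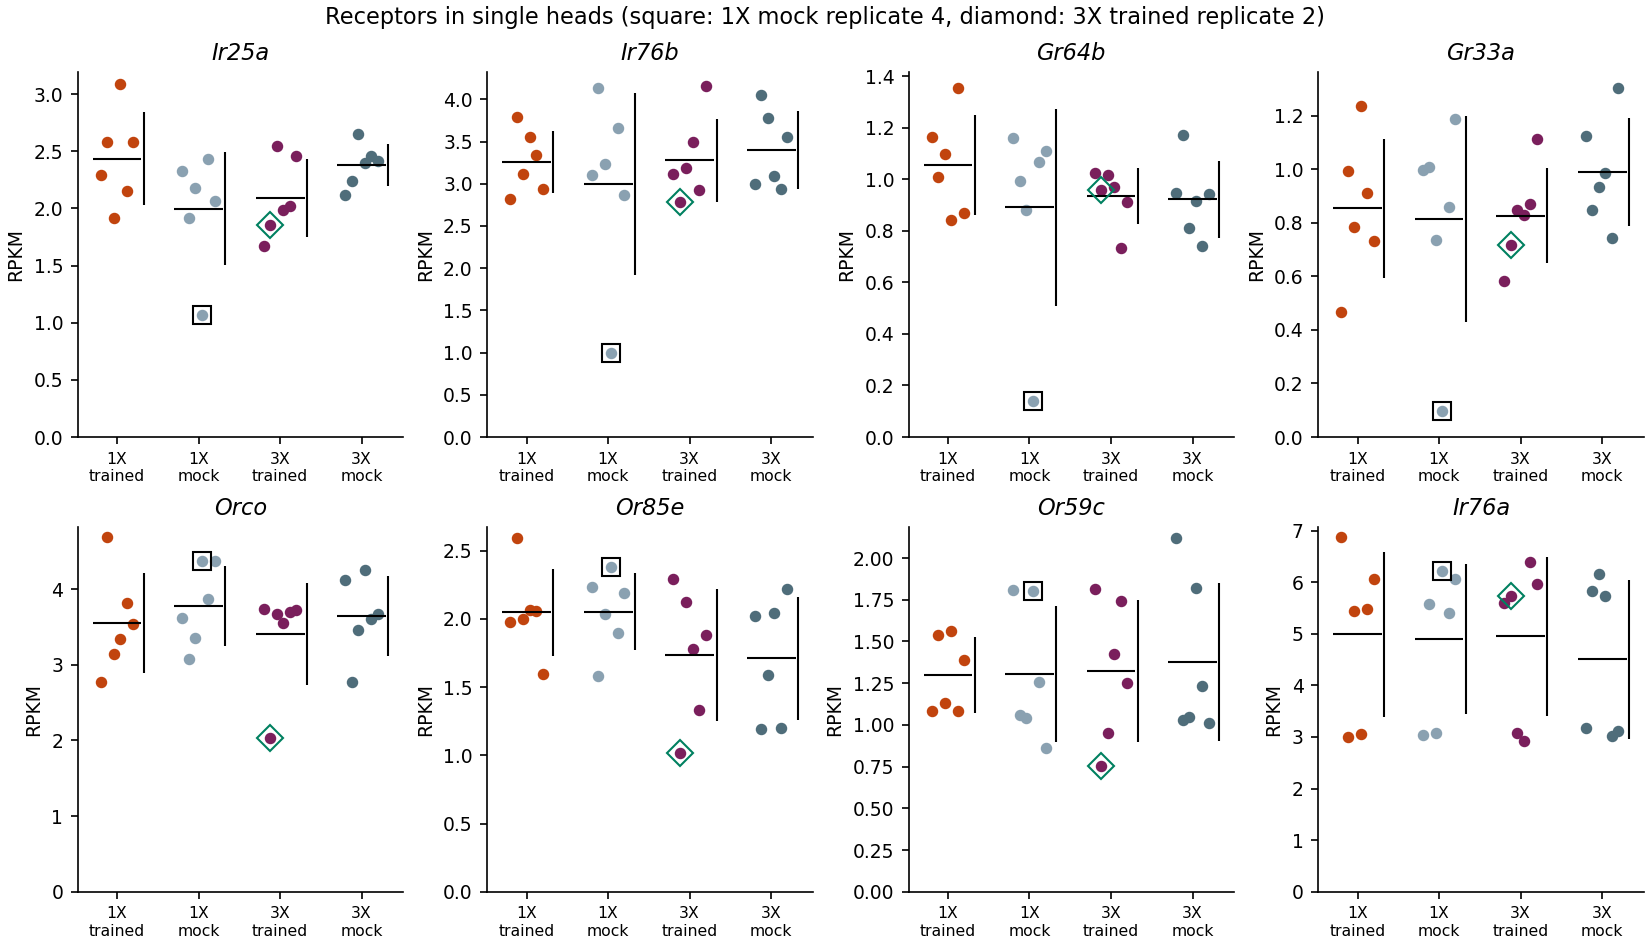
RPKM of 8 receptors in each fly (points) of the 1X trained, 1X mock, 3X trained and 3X mock groups, with the mean (horizontal line) and 1 SD (vertical line); a square marks 1X mock replicate 4 and a diamond 3X trained replicate 2. The square is lowest for Ir25a, Ir76b, Gr64b and Gr33a, the diamond is lowest for Orco, Or85e and Or59c, and Ir76a forms 2 levels in every group.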

How the data were processed

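Poly(A) RNA of 24 single male heads was made into non-stranded SMART-Seq v4 libraries. The authors deposited RPKM values, 1 column per fly; the submitters' processing notes name dm6, TopHat2 2.0.13 and edgeR 3.18.1. Another section of the methods names an older TopHat with dm3 and cuffdiff. Groups, replicate numbers and columns were matched through the labels. Nothing says whether flies of 1 group came from separate cultures, so p-values measure the spread between these flies.

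Whole reads were recovered from the RPKM values with exonic lengths of the Ensembl 115 annotation (BDGP6, dm6), within 0.02 reads for all 182 members; 2 needed a fitted length. The median library had 34567410 reads, and reads cover counting error only.

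Genes that reached 1 RPKM in 6 or more of the 24 flies were tested on log2(RPKM + 1), a scale that understates the change of low genes. One limma 3.58.1 fit (R 4.3.3, eBayes with trend) with a mean per group gave 5 two-sided contrasts, with Benjamini-Hochberg adjustment over all 10547 genes at 0.05. Relations used 100000 permutations within groups. The fit was tested on simulated data.

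Members and gene lists were chosen with earlier results of these data known. Named are the 4 co-receptors, the 6 highest members of each family, members called or not overlapping between groups, members whose detection an overlap or 1 library decides, and the highest of each list; other members were named after their values were seen. Alternatives were another pseudocount, other filters, median-ratio and quantile scaling, voom on recovered reads, array weights, a replicate block, the 2 groups alone and leaving out each fly. Scripts ran in Python 3.11.15 with pandas 2.3.3, numpy 2.4.6, scipy 1.17.1 and matplotlib 3.10.9. No sequences were used here.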

Additional observations from a re-analysis of the deposited data

Results flagged for a closer look

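Within each group of 6 flies the highest and the lowest value of each of the 35 members tested were compared with the rest by Dixon's ratio, the gap to the nearest fly divided by the range of the log2 values. Of 140 such groups 13 had a fly past the 95% critical value, where chance alone would give about 7, and 7 of the 13 were in 1X mock replicate 4. Gr64b and Gr64c had equal reads and Gr64d and Gr64e nearly so, and with each pair counted once 10 of 132 groups had such a fly, where chance alone would give about 6.6, and 5 of the 10 were in 1X mock replicate 4.

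In 1X mock replicate 4 the ratio was 0.68 for Ir25a, 0.664 for Gr33a, 0.657 for Gr64d, 0.658 for Gr64e, 0.783 for Gr64b and for Gr64c (the same measurement), and 0.699 for Ir76b, and each was the lowest of its group. In 3X trained replicate 2 the ratio of Orco was 0.909, with 2.03 RPKM there and 3.55 to 3.74 RPKM in the rest of the group.

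Gr66a was high in 1X trained replicate 2 (ratio 0.658, 1.88 RPKM against 1.19 to 1.405 RPKM in the rest). Ir41a was low in 1X trained replicate 4 (0.81, 2.65 RPKM against 3.06 to 3.16 RPKM) and in 3X mock replicate 3 (0.748, 2.98 RPKM against 3.42 to 3.58 RPKM). Gr64b and Gr64c were low in 3X trained replicate 5 (0.632, 0.732 RPKM against 0.913 to 1.03 RPKM).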

How the results depend on the processing

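The counts of members called kept their value in most settings. After 1 session the count was 1 without the filter on low values. After 3 sessions it was 0 when only the 3X flies were fitted, and it ranged from 0 to 2 over the fits without 1 fly. In 3X trained relative to 1X trained flies that range was 0 to 1, and in the other 3 comparisons it was 0 to 0. The replicate numbers did not pair the flies: 4 of 36 same-numbered pairs had a correlation of deviations over 0.1 (range -0.24 to 0.15). With the replicate block 0 members were called after 1 session, 1 after 3 sessions and 0 in each of the other comparisons. Over all genes array weights called 894 after 1 session (521 without), 382 after 3 sessions (239), 120 for the difference of effects (18) and 728 between mock groups (458). Without the low filter these counts were 345, 109 and 9 for the first 3, the low filter gave 144 after 3 sessions and the block 8 for the difference of effects. The 2 groups alone gave 54 after 3 sessions and 568 between trained groups (1172), where quantile normalization split the calls into 557 higher and 615 lower instead of 677 and 495. Without 1 fly the counts ran from 302 to 608, 26 to 612, 3 to 107, 330 to 601 and 929 to 1630.

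Detection followed the threshold. At 0.1 RPKM in at least 6 flies 33 Or, 36 Gr and 30 Ir genes were counted, and at 1 RPKM in all 24 flies 6 Or, 2 Gr and 6 Ir genes. Among members clear of other genes, a setting chosen after seeing the data, 8 Or, 2 Gr and 7 Ir genes were counted. Without 3X mock replicate 6 the counts at 1 RPKM in 6 flies were 16 Or, 7 Gr and 10 Ir genes. The members lost were Gr33a and Ir31a, both clear of other genes. Each reached 1 RPKM in only the 6 flies required, so leaving out any other of its 6 flies loses it too.

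The log2 difference of Ir62a after 3 sessions stayed negative in 34 alternatives (-0.46 to -0.31) and lost the threshold in 6. The relation of Orco with Obp28a kept r between 0.75 and 0.76 in 3 alternatives. Its Spearman rho there was 0.43 to 0.53, with adjusted permutation p of 0.0524 to 0.260, highest when group means were kept. The r of Orco with Ir25a reversed to -0.00 (-0.003) when group means were kept. Depth limits most the 86 members with fewer than 10 reads in every fly.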
